A study of Mus musculus with 20 samples.

Results

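Chemoattractant receptors were examined in dural CAMs (dCAMs), the CNS-associated macrophages that reside in the outermost meningeal layer, as the 8 genes *Ccr2*, *Ccr1*, *Ccrl2*, *Cx3cr1*, *Cxcr4*, *Fpr1*, *Fpr2* and *S1pr1*. The members were taken by symbol from a raw count table of 33243 gene symbols, and all 8 were among the 16632 genes that passed the filter on low counts. All mice carried 1 copy of the Ccr2creERT2 allele and were R26tdT/tdT, so that tamoxifen turns on the red fluorescent protein tdTomato (tdT) in cells in which the *Ccr2* promoter is active at that time, and in their progeny. In every group, macrophages had been depleted over 7 days with BLZ945 (200 mg per kg), which blocks CSF1R, and tamoxifen (2 mg per day) had followed on the last of these days and 2 and 4 days after it. At 8 weeks after BLZ945 the mice received either the bacterial endotoxin lipopolysaccharide (LPS, 2.5 mg per kg) or PBS alone (CTL), and the dura was taken 12 h later. Each of 10 mice gave 1 tdT- and 1 tdT+ library from its CD45int CD11b+ CD206int-high cells. The 20 libraries form 4 groups of 5, with mice 174, 175, 177, 178 and 179 as CTL and mice 54, 56, 59, 60 and 61 under LPS. The age of the mice was not in the labels, and titles starting with F or M were present in both treatments. Every group had thus been depleted and repopulated, and no library came from an untreated mouse. The label depends on *Ccr2* at the time of tamoxifen, and *Ccr2* transcript 8 weeks later is a separate measurement of the same gene. Whether the creERT2 allele itself gave reads that were assigned to *Ccr2* was not tested.

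Chemoattractant receptors are G protein-coupled receptors that let leukocytes move along gradients of chemokines, bacterial peptides or lipids. CCR2 binds CCL2 and CCL7 and is needed for classical monocytes to leave the bone marrow, CX3CR1 binds the membrane-tethered chemokine CX3CL1 and marks many resident macrophages, and CXCR4 binds CXCL12 and retains cells in the marrow. CCR1 binds CCL3 and CCL5, whereas CCRL2 binds chemerin and presents it without signaling of its own. FPR1 and FPR2 recognize formylated peptides of bacteria and mitochondria, and FPR2 also binds serum amyloid A and annexin A1. S1PR1 reads the gradient of the lipid sphingosine 1-phosphate (S1P) by which leukocytes exit tissue.

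The receptors are given here with their places in GRCm38 (GENCODE M21), which serve only to locate a gene. *Ccr2* (chr9:124101950-124113557, + strand) and *Ccr1* (chr9:123962124-123968692, - strand) lie in the same chemokine receptor cluster, with 133258 bases between their annotated starts. *Ccrl2* (chr9:111054486-111057519, - strand) and *Cx3cr1* (chr9:119901616-120069879, - strand) are farther off on the same chromosome, *Cxcr4* is at chr1:128588199-128592293 (- strand), and *S1pr1* is at chr3:115710433-115715072 (- strand). *Fpr1* (chr17:17876471-17883940, - strand) and *Fpr2* (chr17:17887824-17893952, + strand) point away from each other, with starts 3884 bases apart. All 8 are protein coding, and the tables gene by gene do not say which exons the reads came from. In this annotation the span of *Cx3cr1* overlaps other genes on both strands and the span of *Fpr2* overlaps *Fpr3*, a near relative that had under 10 counts over the 20 libraries. Use of strand in counting was not given in the sources used here, so that reads of overlapping genes on opposite strands may not be told apart.

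The 250 bases before the RefSeq start (GRCm38.p6) are shown for the members that rose or fell with LPS in both populations, and for *Ccrl2*. RefSeq and GENCODE starts differ for some members. The *Ccr2* window lies mostly and the *Cx3cr1* window wholly within the GENCODE span given above. Counts per gene do not tell which start was used. Capitals mark a match, on either strand, to 1 of 5 short motifs of factors that act in macrophages. The motifs were NF-kB-like (GGNNNTTCC), AP-1 (TGANTCA), C/EBP-like (TTGCNNAA), PU.1-like (GAGGAAGT) and interferon response-like (ISRE-like, GAAANNGAA).
Ccr2 (chr9:124101933-124102182, + strand): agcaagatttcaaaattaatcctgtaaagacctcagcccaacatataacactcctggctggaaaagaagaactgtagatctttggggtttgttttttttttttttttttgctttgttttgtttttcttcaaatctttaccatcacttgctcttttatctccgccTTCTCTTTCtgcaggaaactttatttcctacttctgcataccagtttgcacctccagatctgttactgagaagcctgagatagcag
Cx3cr1 (chr9:120068297-120068546, - strand): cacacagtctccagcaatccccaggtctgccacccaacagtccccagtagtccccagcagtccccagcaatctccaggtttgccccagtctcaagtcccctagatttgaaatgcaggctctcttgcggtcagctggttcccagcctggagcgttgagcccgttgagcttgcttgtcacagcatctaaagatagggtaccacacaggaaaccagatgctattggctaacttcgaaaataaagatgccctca
Fpr1 (chr17:17883940-17884189, - strand): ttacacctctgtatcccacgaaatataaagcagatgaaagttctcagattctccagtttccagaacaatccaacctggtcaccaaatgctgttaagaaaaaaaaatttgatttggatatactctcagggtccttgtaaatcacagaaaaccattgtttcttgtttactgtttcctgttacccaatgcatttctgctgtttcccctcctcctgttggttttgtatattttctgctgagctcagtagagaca
Fpr2 (chr17:17887574-17887823, + strand): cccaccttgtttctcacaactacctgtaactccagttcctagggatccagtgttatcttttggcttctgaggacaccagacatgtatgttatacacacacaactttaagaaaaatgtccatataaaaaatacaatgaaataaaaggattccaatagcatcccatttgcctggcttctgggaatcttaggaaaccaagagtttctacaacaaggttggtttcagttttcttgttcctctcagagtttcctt
Ccrl2 (chr9:111057519-111057768, - strand): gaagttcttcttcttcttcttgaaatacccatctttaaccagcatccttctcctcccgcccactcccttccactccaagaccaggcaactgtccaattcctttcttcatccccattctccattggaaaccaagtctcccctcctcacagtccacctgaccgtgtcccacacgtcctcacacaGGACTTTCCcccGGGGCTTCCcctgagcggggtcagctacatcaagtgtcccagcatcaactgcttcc
The *Ccr2* window held an ISRE-like match 86 bases before the start, and the first of 3 listed *Ccrl2* starts had NF-kB-like matches 68 and 56 bases before it. None of the 5 motifs was found in the windows shown for *Cx3cr1*, *Fpr1* and *Fpr2*. Of 32851 RefSeq windows of this length, 15.7% held the NF-kB-like letters, 6.75% AP-1, 9.56% C/EBP-like, 2.44% PU.1-like and 7.13% ISRE-like. The table held windows for 7 of the 8 members, with *S1pr1* missing. A match describes letters and not a bound site.

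Library totals ranged from 6017650 to 18925908 counts, and LPS libraries (12073566 to 18925908) were deeper than most CTL libraries (6017650 to 12208203). The tdT- CTL libraries had 6671 to 9365 genes with at least 10 counts, against 10024 or more in every other library. CPM here are counts per 1e+06 library counts after TMM scaling, and 3 counts, the floor used here, were worth 0.159 to 0.499 CPM by library total. All 13 macrophage markers, among them *Mrc1*, which encodes CD206, were over the floor in every library. The summed macrophage markers were 28400 to 54800 CPM in tdT- CTL, 48800 to 58300 in tdT+ CTL, 13700 to 19300 in tdT- LPS and 17900 to 20700 in tdT+ LPS libraries. *Apoe* and *Lyz2* had the highest means, and both fell with LPS, from 18900 to 6190 and from 12300 to 2080 CPM in tdT- dCAMs. The list did not move as one. In tdT- dCAMs *Itgam* (148 to 942 CPM) and *Fcgr1* (221 to 646 CPM) rose, and *Ptprc* stayed level (394 to 406 CPM). In sorted bulk samples, fewer cells of a type and less RNA per cell cannot be told apart.

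**Figure D1:**
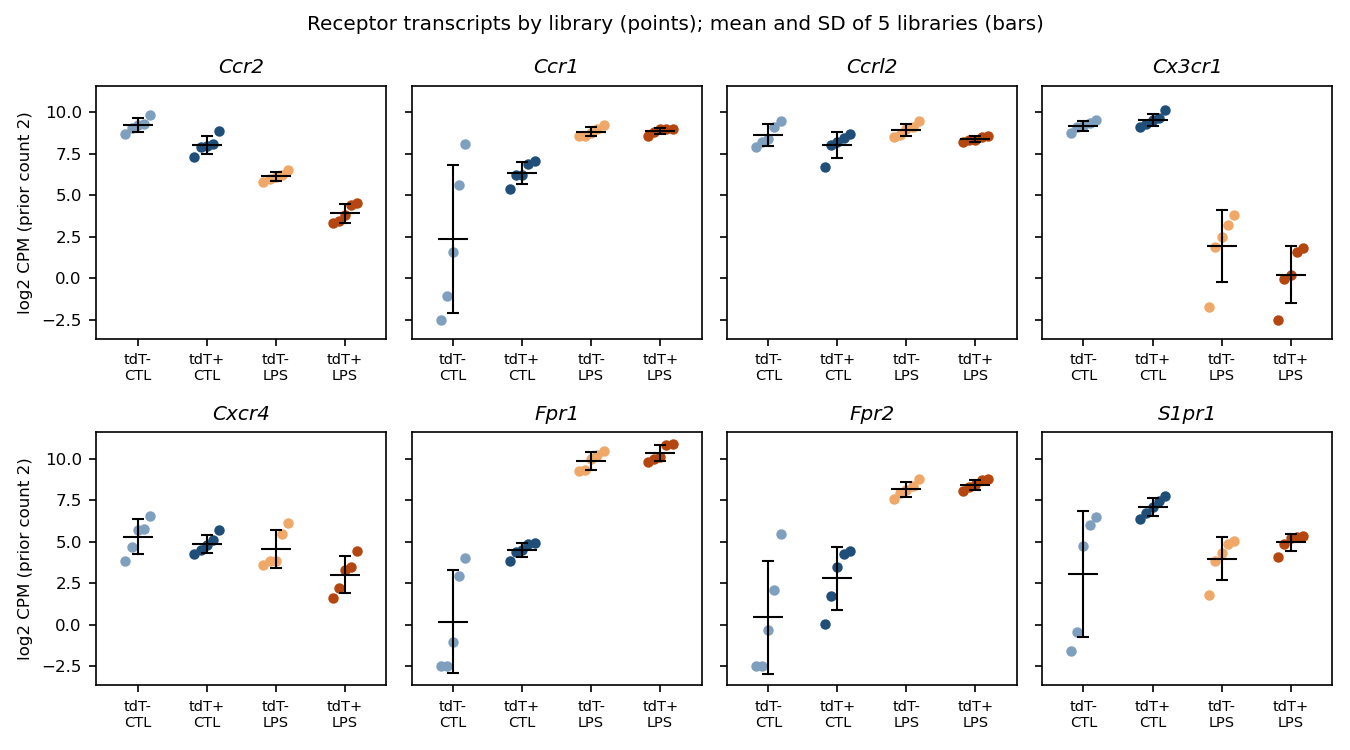
Each panel plots 1 receptor gene as log2 CPM (prior count 2) in the tdT- CTL, tdT+ CTL, tdT- LPS and tdT+ LPS groups; points are libraries, and bars are the mean and SD of 5 libraries. *Fpr1* and *Fpr2* are higher and *Ccr2* and *Cx3cr1* lower in every LPS library than in every CTL library of the same population, and the points of *Ccr1*, *Fpr1*, *Fpr2* and *S1pr1* are spread widest in tdT- CTL.

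The first comparison asked which receptors differed 12 h after LPS within each population. LPS was accompanied by a loss of *Ccr2* and *Cx3cr1* transcripts and a gain of *Fpr1* and *Fpr2* transcripts in tdT- and tdT+ dCAMs alike. In each population 2 members rose and 2 fell past the threshold, which asked for more than 1 log2 unit of change and for p under 0.05 after Benjamini-Hochberg adjustment in edgeR's quasi-likelihood test over the 20 libraries, and 4 did not pass. Over all genes tested, 7.2% passed as higher and 4.27% as lower in tdT- dCAMs, and 3.37% as higher and 2.52% as lower in tdT+ dCAMs. Libraries of the treatments did not overlap for 5 of 8 members in tdT- dCAMs, where this held for 12.6% of all genes, and for 6 of 8 in tdT+ dCAMs, where it held for 17.8%. The median log2 fold change of the 8 members was -0.20 in tdT- and -0.71 in tdT+ dCAMs, against 0.02 and 0.0084 over all genes.

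*Ccr2*, the receptor for CCL2 and CCL7, was measured in every library. In tdT- dCAMs it stood at 624.8, 418.9, 529.5, 593.7 and 906.1 CPM in CTL mice 174, 175, 177, 178 and 179, and at 92.2, 55.2, 69.6, 75.0 and 62.1 CPM in LPS mice 54, 56, 59, 60 and 61. In tdT+ dCAMs of the same mice, in the same order, it stood at 249.9, 160.1, 462.7, 274.1 and 240.5 CPM with PBS and at 21.3, 10.9, 13.8, 22.6 and 9.65 CPM with LPS. The lowest CTL library was thus above the highest LPS library in both populations, and the tdT+ LPS libraries were the lowest of all. The group means were 614.6 ± 181 and 277.5 ± 112.1 CPM (SD, n = 5 each) in tdT- and tdT+ CTL dCAMs, and 70.8 ± 14.1 and 15.6 ± 5.96 CPM (SD, n = 5 each) in the LPS groups. *Ccr2* fell by 3.12 ± 0.32 on the log2 scale (SE; edgeR adjusted p = 9.01e-07) in tdT- dCAMs, which is 8.68-fold, and by 4.15 ± 0.33 (SE; edgeR adjusted p = 2.78e-08) in tdT+ dCAMs, which is 17.7-fold.

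*Cx3cr1*, the fractalkine receptor, was the member with the lowest levels after LPS. It ranged from 427.4 to 743 CPM in tdT- CTL libraries (median 581.9) and from 555.8 to 1104 CPM in tdT+ CTL libraries (median 750.3). With LPS it was 5.33, 3.51, 0.123, 13.9 and 8.87 CPM in the tdT- libraries of mice 54, 56, 59, 60 and 61, and 0.981, 2.81, 0, 3.36 and 0.795 CPM in their tdT+ libraries. Mouse 59 was at or under the floor in both populations, with 2 counts in its tdT- and 0 counts in its tdT+ library, and no LPS library came near the CTL range. *Cx3cr1* fell by 6.55 ± 0.90 on the log2 scale (SE; edgeR adjusted p = 3.57e-05) in tdT- dCAMs and fell by 8.92 ± 0.996 (SE; edgeR adjusted p = 2.62e-06) in tdT+ dCAMs. It was called under every alternative that was run, leaving out each mouse included, and with quality weights the log2 fold changes were -7.57 and -9.80.

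*Fpr1*, which encodes the high-affinity formyl peptide receptor, rose in both populations and was the member with the highest level after LPS. In tdT- CTL libraries it had 2, 147, 0, 66 and 0 counts in mice 174, 175, 177, 178 and 179 (0.304, 16.1, 0, 7.45 and 0 CPM), so that only 2 of 5 were over the floor. In tdT+ CTL libraries it was at 29.7, 22.5, 20.6, 29.4 and 13.9 CPM, all over the floor. With LPS it was at 613.1, 1011, 1390, 633.2 and 1186 CPM in the tdT- and at 1118, 1015, 1778, 906.7 and 1892 CPM in the tdT+ libraries of mice 54, 56, 59, 60 and 61. Every LPS library was more than 10 times any CTL library of its population. The rise was 7.64 ± 1.08 on the log2 scale (SE; edgeR adjusted p = 5.19e-05) in tdT- dCAMs and 5.85 ± 0.99 (SE; edgeR adjusted p = 0.000415) in tdT+ dCAMs. With mouse as a replicate block, in a limma-voom fit, the tdT+ rise was 6.05 with an adjusted p of 0.223, and with limma-voom quality weights the tdT- rise was 9.74 with an adjusted p of 0.286, so that the call was lost in each. The tdT- rise was 9.06 without mouse 175 and 10.4 with the block. Over all alternatives the adjusted p ran from 1.35e-14 to 0.286 in tdT- and from 1.12e-08 to 0.223 in tdT+ dCAMs.

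*Fpr2*, whose product also binds serum amyloid A, rose with its neighbor *Fpr1*. Its tdT- CTL libraries had 27, 0, 5, 0 and 339 counts in mice 174, 175, 177, 178 and 179, equal to 4.10, 0, 0.614, 0 and 44.4 CPM, and its tdT+ CTL libraries were at 21.8, 3.18, 10.95, 18.8 and 0.843 CPM. The tdT- LPS libraries were at 192, 244.2, 324.1, 273 and 446 CPM and the tdT+ LPS libraries at 267, 307.5, 439.4, 338.4 and 417.4 CPM, in mice 54, 56, 59, 60 and 61. CTL mouse 179 held the highest tdT- and the lowest tdT+ value of its treatment, and still no CTL library reached an LPS library. The rises were 4.92 ± 1.24 (SE; edgeR adjusted p = 0.0112) and 5.00 ± 1.25 (SE; edgeR adjusted p = 0.0151) on the log2 scale in tdT- and tdT+ dCAMs. The tdT- call was lost, at an adjusted p of 0.0938, where edgeR was fitted to these 10 libraries alone, the highest over its alternatives (the lowest was 2.89e-05). The size of the tdT- rise rested on mouse 179. It was 8.05 without that mouse, 9.20 with quality weights and 8.39 with mouse as a replicate block, and the tdT+ rise was 5.82 with the block.

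*Ccr1*, the receptor for CCL3 and CCL5, was higher in every LPS library than in every CTL library of its population but did not pass the threshold. The tdT- CTL libraries were at 0.304, 269.6, 48.6, 2.82 and 0 CPM in mice 174, 175, 177, 178 and 179, against 386.3, 382.8, 428, 608.8 and 512.3 CPM in the tdT- LPS libraries of mice 54, 56, 59, 60 and 61. The tdT+ libraries were closer together, at 40.9, 74.1, 73.1, 133.6 and 115.9 CPM with PBS and at 500.3, 385.2, 448.4, 517.9 and 508.4 CPM with LPS. The spread was therefore mostly that of tdT- CTL, where mouse 175 stood far above the others. The log2 fold changes were 2.85 ± 1.11 (SE; edgeR adjusted p = 0.0956) and 2.43 ± 1.10 (SE; edgeR adjusted p = 0.221). With mouse as a replicate block they were 6.79 (limma-voom adjusted p = 0.000529) and 2.44 (limma-voom adjusted p = 0.00389), both past the threshold. Without mouse 175 the tdT- change was 5.23 (edgeR adjusted p = 0.00422), and without the tdT- libraries, in the fit of the 10 tdT+ libraries alone, the tdT+ change was 2.43 (edgeR adjusted p = 4.91e-05). With quality weights it passed in tdT- dCAMs as well (5.41, limma-voom adjusted p = 0.0285). Over all alternatives the adjusted p ran up to 0.261 in tdT- and 0.33 in tdT+ dCAMs, and DESeq2 gave none for *Ccr1*.

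*S1pr1* and *Cxcr4*, which tie cells to S1P and CXCL12, had lower mean CPM with LPS without passing the threshold. *S1pr1* in tdT+ dCAMs was at 84.1, 175.8, 108, 138.2 and 214.1 CPM in CTL mice 174, 175, 177, 178 and 179 and at 40.5, 38.6, 28.7, 16.8 and 37.6 CPM in LPS mice 54, 56, 59, 60 and 61. These did not overlap, whereas in tdT- dCAMs the CTL libraries (0.152, 91.2, 64.1, 0.565 and 26.2 CPM) enclosed the LPS libraries (19.9, 29.0, 32.5, 3.28 and 14.2 CPM). The log2 fold change of *S1pr1* was -2.15 ± 0.95 (SE; edgeR adjusted p = 0.211) in tdT+ and -0.88 ± 0.92 (SE; edgeR adjusted p = 0.556) in tdT- dCAMs. The tdT- direction turned to 0.53 with quality weights and to 1.09 with mouse as a replicate block, and the mean of log2 CPM there was 3.04 with PBS and 3.97 with LPS. *Cxcr4* ranged from 18.7 to 51.3 CPM with PBS (median 28.1) and from 2.84 to 21.3 CPM with LPS (median 9.82) in tdT+ dCAMs, with a log2 fold change of -1.65 ± 0.67 (SE; edgeR adjusted p = 0.167). In tdT- dCAMs it ranged from 13.99 to 94.5 CPM with PBS and from 12.0 to 69.0 CPM with LPS, and the log2 fold change was -0.65 ± 0.65 (SE; edgeR adjusted p = 0.54). Where the 10 tdT+ libraries were fitted alone, *Ccr1*, *S1pr1* (-2.15, edgeR adjusted p = 0.000262) and *Cxcr4* (-1.65, edgeR adjusted p = 0.041) passed too, which made 7 of 8 members. With mouse as a replicate block, *S1pr1* in tdT+ dCAMs was called at -2.24 (limma-voom adjusted p = 0.0306). Over all alternatives the adjusted p in tdT+ dCAMs ran from 0.000262 to 0.338 for *S1pr1* and from 0.0195 to 0.321 for *Cxcr4*.

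*Ccrl2*, the chemerin-binding receptor, was detected at similar levels with and without LPS. Its libraries ranged from 237 to 715.7 CPM in tdT- CTL (median 328.2), from 368.7 to 702.5 in tdT- LPS (median 505.5), from 104.2 to 415.7 in tdT+ CTL (median 296.9) and from 295.5 to 386.2 in tdT+ LPS (median 323.5). The ranges overlapped in both populations. The log2 fold change was 0.25 (95% confidence interval -0.41 to 0.91, edgeR adjusted p = 0.647) in tdT- and 0.23 (-0.43 to 0.89, edgeR adjusted p = 0.814) in tdT+ dCAMs, so that changes of more than about 1 log2 unit lay outside the intervals.

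**Figure D2:**
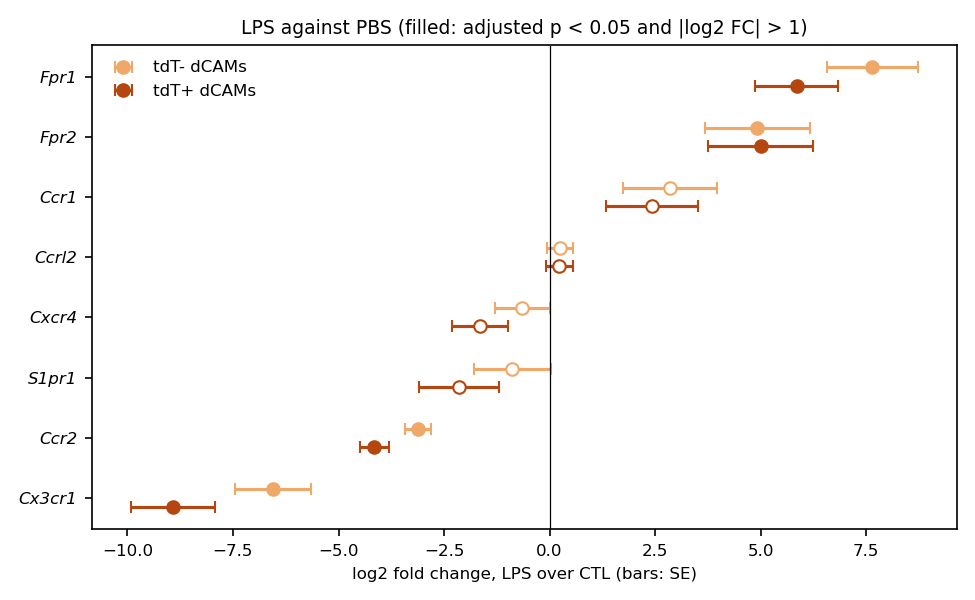
The log2 fold change of LPS over CTL (x axis) is plotted for the 8 receptor genes in tdT- and tdT+ dCAMs. Bars are the SE derived from the F statistic of the joint edgeR fit, and filled points passed the threshold. *Fpr1* and *Fpr2* are filled on the right and *Ccr2* and *Cx3cr1* on the left in both populations, while *Ccr1*, *Ccrl2*, *Cxcr4* and *S1pr1* are open.

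Marker lists of other cells were measured beside these results. The 10 neutrophil markers summed to 68.7 to 183 CPM in tdT- CTL and 84.5 to 196 CPM in tdT+ CTL libraries, and to 434 to 1090 and 448 to 959 CPM in the tdT- and tdT+ LPS libraries, so that they were higher together with *Fpr1* and *Fpr2*, which neutrophils also express. Group means went from 8.07 to 291 CPM in tdT- and from 2.09 to 309 CPM in tdT+ dCAMs for *S100a8*, from 39 to 205 and from 107 to 272 CPM for *Csf3r*, and from 0.0491 to 98 and from 0.0802 to 103 CPM for *Mmp8*. *Retnlg* went from 54 to 216 CPM in tdT- dCAMs, where it was over the floor in 2 of 5 CTL and 5 of 5 LPS libraries, and from 1.46 to 0.302 CPM in tdT+ dCAMs. Of the 5 tdT- and the 5 tdT+ LPS libraries, *Camp* was over the floor in 3 and 5, *S100a9* in 4 and 1, *Ngp* in 2 and 2, *Cxcr2* in 2 and 0, *Ly6g* in 1 and 0, and *Ltf* in 1 and 0. The 7 markers of classical monocytes, the cells known for CCR2, summed to 1110 to 1990 CPM in tdT- CTL, 1730 to 3880 in tdT+ CTL, 2970 to 4800 in tdT- LPS and 3380 to 4260 in tdT+ LPS libraries. Their group levels were thus higher with LPS in tdT- dCAMs, in which *Ccr2* fell. Dendritic cell markers went both ways with LPS in tdT- dCAMs. *Cd209a* fell past the threshold (log2 fold change -5.52). *Flt3* (-3.36) and *Zbtb46* (-2.85) were lower, and *Ccr7* (3.11), *Fscn1* (1.33) and *Clec9a* (3.04, near the floor) higher, without passing. Microglia markers were at 71.6 to 389 CPM in CTL and 537 to 834 CPM in LPS libraries, through *Tmem119*. B cell (at most 114 CPM), T or NK cell (at most 20.4), mast cell (at most 120) and endothelial (at most 63.1) markers stayed low, and fibroblast markers reached 4670 CPM in 1 tdT- CTL library and at most 415 CPM in the LPS groups. The part of these cells in the receptor results was not tested.

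**Figure D3:**
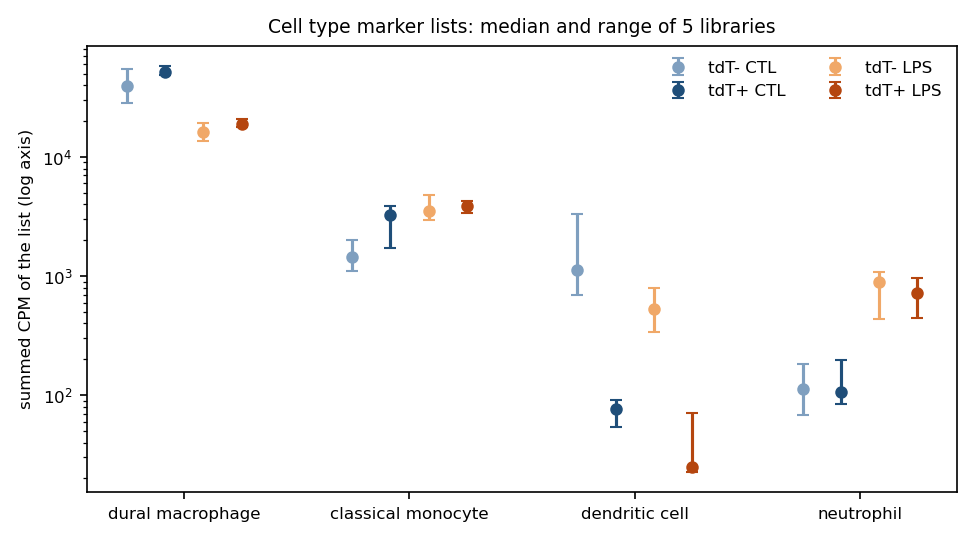
Summed CPM of the macrophage, classical monocyte, dendritic cell and neutrophil marker lists (log axis) is plotted for the 4 groups; points are medians and bars the range of 5 libraries. Neutrophil markers are higher in both LPS groups, and dendritic cell markers are higher in both tdT- groups than in the tdT+ groups.

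The second comparison set tdT+ against tdT- dCAMs of the same mice. The main edgeR fit had 1 mean per group and no term for mouse, so that its p-values do not use this pairing. *Ccr2* was the 1 member past the threshold, and it was lower in tdT+ dCAMs in all 5 CTL mice and all 5 LPS mice. Over all genes, 3.01% passed as higher and 1.27% as lower in tdT+ CTL dCAMs, and 0% as higher and 0.0301% as lower in tdT+ LPS dCAMs. *Ccr2* was lower by a log2 fold change of -1.15 ± 0.30 (SE; edgeR adjusted p = 0.0289, 2.22-fold) in CTL mice and of -2.18 ± 0.31 (SE; edgeR adjusted p = 0.00502, 4.53-fold) in LPS mice. It ranked 539 and 2 by p among the 16632 genes.

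Mouse by mouse, the tdT+ minus tdT- difference of *Ccr2* in log2 CPM was -1.32, -1.39, -0.20, -1.11 and -1.91 in CTL mice 174, 175, 177, 178 and 179. It was -2.11, -2.32, -2.32, -1.72 and -2.67 in LPS mice 54, 56, 59, 60 and 61. The LPS libraries of the populations did not overlap, while in CTL mice the tdT+ library of mouse 177 lay within the tdT- range. The CTL call was lost without mouse 174, 175, 178 or 179, or without LPS mouse 54 or 59, with adjusted p from 0.0501 to 0.107. It was also lost with quality weights (adjusted p = 0.0584), in the fit of the 10 CTL libraries alone (adjusted p = 0.218), and there with mouse as a replicate block (adjusted p = 0.558), where the log2 fold change stayed between -1.19 and -0.99, and the lowest adjusted p of an alternative was 0.00429. The LPS call was lost without mouse 59 (adjusted p = 0.0604) or 61 (adjusted p = 0.0553), with log2 fold changes of -2.14 and -2.09, and was as low as 9.84e-09 by adjusted p in another alternative.

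**Figure D4:**
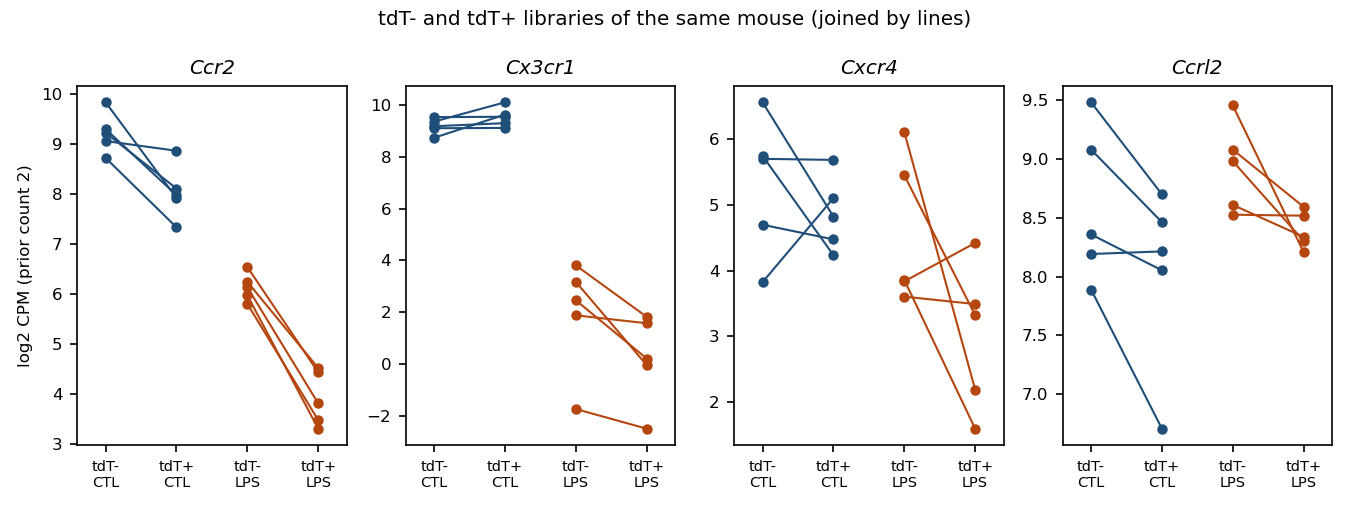
Lines join the tdT- and the tdT+ library of a mouse for *Ccr2*, *Cx3cr1*, *Cxcr4* and *Ccrl2*, as log2 CPM (prior count 2), with CTL mice on the left and LPS mice on the right of each panel and a y axis of its own per panel. The *Ccr2* line falls in all 10 mice, by the least in CTL mouse 177.

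The summed dendritic cell markers, like *Ccr2*, were higher in tdT- than in tdT+ dCAMs. The 7 markers summed to 688 to 3340 CPM in tdT- CTL against 54.1 to 90.8 CPM in tdT+ CTL libraries, and to 337 to 789 CPM in tdT- LPS against 22.6 to 71.4 CPM in tdT+ LPS libraries. *Cd209a* was at a mean of 1230 CPM in tdT- and 44.2 CPM in tdT+ CTL dCAMs, where it passed the test, and at 26.8 and 17.4 CPM in tdT- and tdT+ LPS dCAMs, where it did not pass. *Ccr7* was at 46.3 and 1.18 CPM in tdT- and tdT+ CTL dCAMs and at 401 and 7.21 CPM in tdT- and tdT+ LPS dCAMs, and passed in neither treatment. *Xcr1*, which defines cross-presenting dendritic cells, was at or under the floor in all 20 libraries. Dendritic cells are known to express CCR2, and their part in the difference was not tested.

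No other member passed between the populations. In CTL mice *Fpr1*, *S1pr1* and *Cx3cr1* were each higher in the tdT+ library of all 5 mice, a pattern shown by 5.85% of all genes, and *Ccr2* alone of the members was lower in all 5, as were 3.61% of genes. For *Cx3cr1* the difference was only 0.0141 log2 CPM in mouse 175 and 0.0105 in mouse 177. On plain library totals, without TMM scaling, mouse 175 went the other way, with 809.7 CPM in tdT- and 786.5 in tdT+ dCAMs. The log2 fold changes were 2.26 ± 0.86 for *Fpr1* (SE; edgeR adjusted p = 0.129), 1.98 ± 0.94 for *S1pr1* (SE; edgeR adjusted p = 0.209) and 0.37 ± 0.70 for *Cx3cr1* (SE; edgeR adjusted p = 0.841). *Fpr1* passed without mouse 175 (3.71, edgeR adjusted p = 0.0165), against up to 0.798 in other alternatives. *Fpr2* had a log2 fold change of 0.17 (edgeR adjusted p = 0.996) and passed at 3.61 (edgeR adjusted p = 0.0201) without mouse 179, whose tdT- library had the highest count, against up to 1 in other alternatives.

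In LPS mice *Ccr2*, *Ccrl2* and *Cx3cr1* were lower in the tdT+ library of all 5 mice, as were 4.71% of all genes, and *Fpr1* was higher in all 5, as were 5.19%. The difference was only -0.00853 log2 CPM for *Ccrl2* in mouse 59 and 0.00521 for *Fpr1* in mouse 56. On plain library totals *Fpr1* in mouse 56 was at 1020 CPM in tdT- and 1019 in tdT+ dCAMs. The log2 fold change was -0.57 (95% confidence interval -1.23 to 0.09) for *Ccrl2*, -2.00 (-3.57 to -0.42) for *Cx3cr1* and -1.63 (-3.02 to -0.25) for *Cxcr4*, with edgeR adjusted p of 1, 0.913 and 0.913. *Cx3cr1* was near the floor in these libraries, where 4 of 5 in each population exceeded it. *Cxcr4* was lower in tdT+ dCAMs of 4 of 5 mice, the exception being mouse 60 with 14.1 against 21.3 CPM. *Ccr1* (0.03, -2.13 to 2.19), *Fpr1* (0.47, -1.20 to 2.15), *Fpr2* (0.26, -1.93 to 2.45) and *S1pr1* (0.71, -1.19 to 2.62) had intervals that spanned 0 widely.

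The third comparison tested whether the LPS effect differed between the populations. None of the 8 members passed with edgeR, 2 had an unadjusted p under 0.05, and none passed with DESeq2 or limma-voom, where *Ccr1* had no adjusted p with DESeq2. Over all genes 0.0902% passed with a higher and 1.17% with a lower LPS effect in tdT+ dCAMs. The difference of the log2 fold changes was -1.03 ± 0.42 (SE; edgeR adjusted p = 0.267) for *Ccr2* and -2.37 ± 1.03 (SE; edgeR adjusted p = 0.306) for *Cx3cr1*. For *Fpr1* it was -1.79 (95% confidence interval -4.20 to 0.62) and for *Fpr2* 0.08 (-3.04 to 3.21). The intervals of *Ccr2* (-1.9 to -0.16) and *Cx3cr1* (-4.51 to -0.23), which are not adjusted for the number of genes, did not include 0. These were the 2 members with an unadjusted edgeR p under 0.05. After adjustment over all genes tested neither passed, so that a larger fall of *Ccr2* in tdT+ dCAMs was not shown.

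Levels of different genes were compared per kb of annotated exon length, as mean CPM per kb. In tdT- CTL dCAMs the order was *Ccrl2* (162.8 ± 77.1, SD), *Cx3cr1* (131.6 ± 26.3), *Ccr2* (90.9 ± 26.8), *Cxcr4* (26.5 ± 17.2), *Ccr1* (22.7 ± 41.2), *S1pr1* (12.0 ± 13.2), *Fpr2* (7.57 ± 15.0) and *Fpr1* (3.61 ± 5.37). Only the step from *Ccr2* to *Cxcr4* was wider than 1 SD on each side. In tdT+ CTL dCAMs *Cx3cr1* (170.4 ± 46.7) and *Ccrl2* (110.5 ± 45.1) stood above *S1pr1* (47.3 ± 17.1) and *Ccr2* (41.0 ± 16.6), and *Ccr1*, *Fpr1*, *Cxcr4* and *Fpr2* followed at 30.9 to 8.56 without a step wider than 1 SD on each side.

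With LPS the order turned over. *Fpr1* led at 730.1 ± 257.6 CPM per kb (SD) in tdT- and 1013 ± 346.1 in tdT+ dCAMs, followed by *Fpr2* (228.3 ± 74.5 and 273.1 ± 56.3), with *Ccr1* (163.7 ± 34.1 and 166.6 ± 19.6) and *Ccrl2* (193.1 ± 51.6 and 129.9 ± 14.5) next. *Fpr2*, *Ccrl2* and *Ccr1* were within 1 SD of their neighbors in tdT- LPS and apart in tdT+ LPS dCAMs. *Cxcr4*, *Ccr2* and *S1pr1* lay between 16.9 and 2.31, and *Cx3cr1* was last at 1.41 ± 1.17 and 0.353 ± 0.317. Per kb values depend on the annotated length, which is 6.76 kb for *Ccr2* and 1.32 kb for *Fpr1*.

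Across the 20 libraries, the genes whose log2 CPM was most like that of *Ccr2* by Pearson r were *Crip1* (0.966), *Tmsb4x* (0.965) and *H2-DMb1* (0.958), out of 5822 genes that averaged 4 log2 CPM or more. *Crip1* had group means of 552.7, 161.4, 63.7 and 18.4 CPM in tdT- CTL, tdT+ CTL, tdT- LPS and tdT+ LPS libraries, the order of *Ccr2*. Within groups, after the group means were removed, r with *Crip1* was 0.50. *Cx3cr1* was most like *Fgd2* (0.962), *Abhd12* (0.96) and *Rnase4* (0.951), *Fpr1* like *Palld* (0.974), *Slc11a1* (0.964) and *Ecm1* (0.956), and *Fpr2* like *Agtrap* (0.933), *Lgals3bp* (0.93) and *Zbp1* (0.921). *Ccr1* was most like *Ncbp1* (0.972), *Bpnt1* (0.966) and *Vcp* (0.964), and *S1pr1* like *Zscan29* (0.916), *Dnajb4* (0.912) and *Mcm3* (0.868). *Ccrl2* (*Luc7l2* at 0.802 and *Id2* at 0.775) and *Cxcr4* (*Cyp4f18*, *Cd9* and *Ifi30*, 0.824 to 0.774) had looser partners. These are descriptions over libraries that share 10 mice, 4 groups and differences in depth.

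Of 19 chemokine receptors, 16 were tested. In tdT- dCAMs 2 rose, among them *Cxcr5*, and *Ccr2* and *Cx3cr1* fell with LPS, and in tdT+ dCAMs 0 rose and the same 2 members fell. *Cxcr5* was at 0 in tdT- CTL and at a mean of 3.39 CPM in tdT- LPS dCAMs, and *Cxcr6*, higher in tdT+ CTL dCAMs (7.86 CPM), was at 0 in tdT- CTL. These zeros fall in the group with the fewest detected genes, and the part of detection was not tested. The list's median was 2.37 (log2 fold change) with LPS in tdT- and -2.02 in tdT+ dCAMs, and 0.52 over 14 and -1.64 over 15 genes with genes under the floor in a whole group set at their bound. *Ccr1l1* and *Ccr3*, which lie between *Ccr1* and *Ccr2*, did not pass in any comparison, and *Ltf*, next to *Ccrl2*, did not either.

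None of 6 atypical chemokine receptors passed, with medians of 0.22 and -1.09 in tdT- and tdT+ dCAMs, which were -0.02 and -0.60 with genes at the floor in every library of 1 group set to their bound. Of 7 formyl peptide receptors only *Fpr1* and *Fpr2* had enough counts to be tested. Of 15 tested receptors for lipids, complement fragments and related attractants, which include *S1pr1*, 1 rose and 1 fell in tdT- and 1 rose and 3 fell in tdT+ dCAMs, with medians of 0.26 and -0.76, or -0.09 and -0.96 with such genes at their bound. Genes at large passed at 7.2% higher and 4.27% lower in tdT-, and at 3.37% higher and 2.52% lower in tdT+ dCAMs. *Gpr183*, the oxysterol receptor, fell in both (-1.66 and -2.54, edgeR adjusted p = 0.00165 and 2.78e-05). *C3ar1*, the receptor for complement C3a, passed as lower in tdT+ dCAMs, from 864.2 ± 48.2 to 298.6 ± 55.0 CPM (SD, n = 5 each; -1.53, edgeR adjusted p = 0.000229), as did *C5ar2* (-2.58). In tdT- dCAMs *C3ar1* (-0.80, edgeR adjusted p = 0.0332) and *C5ar2* (-1.50, edgeR adjusted p = 0.18) went the same way without passing. *Ltb4r1*, the leukotriene B4 receptor, rose in tdT+ dCAMs from 0.392 to 24.8 CPM (edgeR adjusted p = 0.0382). It was lower in tdT+ than in tdT- CTL dCAMs (edgeR adjusted p = 0.0314). The tdT- CTL libraries were spread widely, at 42.0 ± 58.1 CPM (SD, n = 5), with 3 of 5 over the floor. *S1pr3* rose in tdT- dCAMs from 0 in every CTL library to a mean of 9.65 CPM, and was at 1.17 and 0.953 CPM in tdT+ CTL and LPS dCAMs. The tdT- CTL libraries had the fewest detected genes, and the part of detection in this rise was not tested.

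Ligands of the members were measured in the same cells. Of 15 tested, 4 rose and 1 fell in tdT- dCAMs and 7 rose and 0 fell in tdT+ dCAMs, with medians of 0.13 and 1.69. Among all genes tested, 7.2% rose and 4.27% fell in tdT- dCAMs, and 3.37% rose and 2.52% fell in tdT+ dCAMs. *Saa3*, which encodes a serum amyloid A that can act on FPR2, went from 1.25 ± 0.873 to 34910 ± 6594 CPM (SD, n = 5 each) in tdT- dCAMs, and from at or under the floor in all 5 tdT+ CTL libraries to 29410 ± 1552 CPM with LPS. *Ccl5*, a ligand of CCR1, rose to 4829 and 3696 CPM, and *Ccl7* and *Ccl3* rose in both populations too. *Ccl4* passed as higher in tdT+ dCAMs (2.29) and did not pass in tdT- dCAMs (0.71). *Anxa1*, which encodes the FPR2 ligand annexin A1, fell in tdT- dCAMs from 213.1 to 65.2 CPM (-1.71 ± 0.38, edgeR adjusted p = 0.0046) and was at 58.2 and 59.2 CPM in tdT+ dCAMs. *Ccl2*, the main ligand of CCR2 (named after its values were seen), rose in tdT+ dCAMs from 381.1 to 1231 CPM (1.69, edgeR adjusted p = 0.0062) and had means of 606.1 and 663.5 CPM in tdT- dCAMs (0.13, edgeR adjusted p = 0.86).

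Genes downstream of these receptors passed in both directions, as did genes at large (7.2% higher and 4.27% lower in tdT-, 3.37% and 2.52% in tdT+ dCAMs). Of 30 tested genes of receptor signaling and desensitization, 4 rose and 5 fell in tdT- and 3 rose and 5 fell in tdT+ dCAMs, with medians of -0.06 and -0.21. *Rgs10* and *Rgs2*, which encode regulators that speed the switching off of G proteins, fell in both populations, *Rgs10* from 348.3 to 38.4 CPM in tdT- and from 289 to 35.3 CPM in tdT+ dCAMs (edgeR adjusted p = 5.62e-07 and 8.94e-07). *Vav1*, an exchange factor for Rac, rose in both (1.29 and 1.09, edgeR adjusted p = 1.94e-05 and 0.000129). *Rac2* passed as higher in tdT+ (1.38) and *Klf2*, a factor that drives *S1pr1*, as lower in tdT- dCAMs (-1.17). *Gng2* passed as lower in tdT+ dCAMs (-1.56). The other population went the same way without passing. *Rac2* was at 0.89 and *Gng2* at -0.77 in tdT-, and *Klf2* at -0.90 in tdT+ dCAMs. None of these genes passed for the difference between the LPS effects. Of 10 genes of S1P metabolism and export, 1 rose and 2 fell in tdT- and 1 rose and 0 fell in tdT+ dCAMs, with medians of 0.12 (0.25 with genes at the floor set to their bound) and -0.46. *Sphk1*, the kinase that makes S1P, rose from 1.42 ± 2.77 to 282 ± 71.6 CPM in tdT- and from 1.75 ± 1.66 to 339 ± 89.4 CPM in tdT+ dCAMs (SD, n = 5 each; edgeR adjusted p = 0.000153 and 0.000168). *Plpp3* and *Sgpp1*, phosphatases that act on S1P, fell in tdT- dCAMs (-2.75 and -1.87, edgeR adjusted p = 0.00487 and 0.0295). In tdT+ dCAMs they were at -1.06 and -1.34 without passing. No gene of these 2 lists passed between the populations.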

How the data were processed

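Bulk RNA-seq libraries of 20 sorted dCAM populations were analyzed from raw counts per gene, which the authors deposited after STAR 2.7.11a alignment and featureCounts 2.0.6 assignment (versions per the labels). The methods name 2 mouse builds, and the library kit marks no molecules, so that floors cover counting error only. The edgeR test returns no SE, so that SE was taken as the absolute log2 fold change over the square root of the F statistic. Confidence intervals were built from this SE with the t distribution, and they include the spread between mice. The members, the lists and the tests were chosen with earlier results of these data known. Groups came from the labels. Genes with a total under 10 counts were removed, and TMM-scaled counts of 16632 genes were fitted jointly with 1 mean per group by the quasi-likelihood test of edgeR 4.0.16 in R 4.3.3 (common biological coefficient of variation 1.13), with p-values adjusted over all genes. The CPM values, folds and medians were computed from the deposited counts.

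Named genes were the 8 members, up to 6 per list past the threshold with the smallest p, the 3 most alike genes per member, markers, and neighbors of *Ccr2*, *Ccr1* and *Ccrl2*. Some genes that these rules name are not reported here. The lists other than the members were chemokine, atypical chemokine, formyl peptide, and lipid and anaphylatoxin receptors, ligands, signaling and S1P metabolism. Cell type markers covered macrophages, neutrophils, classical monocytes, dendritic, B, T or NK, mast and endothelial cells, fibroblasts and microglia. Both libraries of a mouse come from 1 animal, which pairs them. Their deviations from the group means correlated at -0.0046 to 0.0461 in CTL and 0.228 to 0.449 in LPS mice. Alternatives were DESeq2 1.42.0 (size factors and Wald test), no filter and the filterByExpr filter, 2-group fits, quality weights in limma 3.58.1, mouse as a replicate block, sex as a covariate, thinning to the smallest total, leaving out each mouse, and, added after seeing the data, a block within 1 treatment. The calls were tested on simulated counts, drawn without shared mice and with set changes in 1 group only. That setting leaves out the pairing of these libraries, and no conclusion about these data is drawn from it.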

Additional observations from a re-analysis of the deposited data

Results flagged for a closer look

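In 2 of 32 sets of 5 libraries (8 members in 4 groups), the highest library lay far from the others on the CPM scale by Dixon's ratio (critical value 0.71). These were *Ccr1* in tdT- CTL dCAMs, where mouse 175 was at 269.6 CPM, and *Fpr2* in tdT- CTL dCAMs, where mouse 179 was at 44.36 CPM. Chance alone marks about 1 in 20 such sets. On log2 CPM 0 sets were marked, and the CPM scale was taken after that was seen.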

How the results depend on the processing

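Of 763 log2 fold changes of single members recomputed under alternatives, 717 kept their direction and their side of the threshold, 14 lost the threshold, 14 gained it and 18 changed sign. In tdT+ dCAMs, 7 members passed with LPS in the 2-group fit and 7 with quality weights, in place of 4. *Ccr2* was the 1 member past the threshold between the CTL populations, and 0 passed in the 2-group fit, 0 with quality weights and 0 with the mouse as a replicate block within 1 treatment. With 1 mouse left out at a time, 0 to 1 members passed between the populations in CTL mice and 0 to 1 in LPS mice. *S1pr1* in tdT- dCAMs turned to 0.53 with quality weights and to 1.09 with the replicate block. The difference between the LPS effects of *Fpr2* was -3.73 with quality weights, -3.13 with the replicate block and -3.35 to 0.70 with 1 mouse left out, and that of *Ccrl2* was 0.037 with the block and -0.16 to 0.097 with 1 mouse left out. With 1 mouse left out, *Ccrl2* in tdT+ dCAMs ranged from -0.0017 to 0.38 with LPS, *Ccr1* from -0.065 to 2.92 between the CTL populations, from -0.032 to 0.11 between the LPS populations and from -2.87 to 0.11 for the difference, and *Fpr2* from -0.43 to 3.61 between the CTL populations. None of these log2 fold changes passed the threshold except that of *Fpr2* at 3.61. Beyond the calls given above, the replicate block changed no call of a member. Over all genes, the number past the threshold was 1907 with LPS in tdT- dCAMs (891 to 4523 under the alternatives), 979 in tdT+ dCAMs (874 to 3155), 712 between CTL populations (3 to 1644), 5 between LPS populations (3 to 137, and 1 to 6 with 1 mouse left out) and 209 for the difference (83 to 744, and 63 to 640 with 1 mouse left out). The cause was not tested. The 2-group fit was not run for the difference, which needs 4 groups. LPS libraries were deeper, and thinning all libraries to 6017650 counts changed no member's call.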
